A study of Mus musculus with 6 samples.

Results

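The genes described here encode the granule proteins of neutrophils, grouped by the stage of maturation at which they are made. They are 10 of the 17128 genes counted by RNA sequencing in cells sorted from mouse femurs at postnatal day 21. The 10 were chosen by name, without a threshold on their values but with earlier results of these data known. The primary granule group holds Mpo, Elane, Prtn3, Ctsg and Ms4a3. The secondary and later group holds Ltf, Camp, Ngp, Lcn2 and Retnlg. All 10 had a row in the count table and all 10 passed the filter on low counts.

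The CXCL12-deficient group (n = 3 libraries) held GFP+ tdTomato+ cells of mice that were Cxcl12(GFP/fl) and R26R(tdTomato/+) and carried the Col2a1-cre transgene. The Control group (n = 3 libraries) held GFP+ cells of mice without that transgene, likewise Cxcl12(GFP/fl) and R26R(tdTomato/+). Every mouse thus carried GFP on 1 Cxcl12 allele, a floxed second Cxcl12 allele and the tdTomato reporter. Col2a1-cre recombines in cells whose precursors expressed Col2a1. The sort gate, the transgene and the recombination of the floxed allele thus changed together and cannot be told apart. About 20000 cells went into a library, per the labels, which do not say whether libraries came from separate animals. The p-values therefore measure the spread between these libraries, which may be technical. As a check of the labels, Cxcl12 was lower in every CXCL12-deficient library than in any Control library (log2 value -1.54, adjusted p = 0.00527, edgeR). The libraries are labelled as marrow stromal cells, whereas most of the genes described here mark neutrophils and their precursors.

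Neutrophils fill their granules in sequence as they mature in the marrow. Promyelocytes make the primary or azurophil proteins, among them the haem enzyme myeloperoxidase and a family of serine proteases. Myelocytes and metamyelocytes make the secondary or specific proteins, such as lactoferrin and cathelicidin, and the most mature cells make gelatinase granules and surface receptors. Since each transcript is abundant for a limited window, the balance of primary to secondary transcripts follows the stages present. PU.1 and C/EBP factors are known regulators of these genes, with C/EBP-epsilon required for secondary granules.

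Promoter stretches are shown because the 2 stage groups differed in the short motifs they held. The search covered the 250 bases before the RefSeq start of each gene (RefSeq, GRCm38.p6, both strands), and the letters of the motifs were chosen after the sequences had been seen. The motif GGAAGT, the core bound by PU.1 and other ETS factors, was present in 5 of 5 primary genes and in 0 of 5 secondary and later genes, against 19.7% of 32851 promoters. The motif TTNNGNAA, a loose C/EBP motif, was present in 1 of 5 primary genes and in 4 of 5 secondary and later genes, against 36.8% of promoters. The motif AACNG of MYB was present in 4 of 5 primary and 5 of 5 secondary and later genes, against 74.2% of promoters. The motif TGTGGT of RUNX was present in 1 of 5 and 0 of 5, against 14.0% of promoters. These are matches of letters and not measured binding. For Prtn3 the RefSeq start lies inside the gene as GENCODE places it, so its stretch falls within the gene coordinates given below. The RefSeq starts of Mpo, Elane, Ltf and Ngp also lie inside their GENCODE genes. Part of their 250 bases, and most of those of Mpo, thus follows the GENCODE start. Their stretches shown here lie before it. In the lines that follow, capitals mark GGAAGT in the primary genes and TTNNGNAA in the secondary and later genes, and in Ms4a3 the capitals cover both, which overlap. Both Ngp matches shown are on the opposite strand, so their capitals are the reverse complement of the motif. Each is read 5′ to 3′ on the strand of the gene, and matches inside an annotated exon are not shown. Among those not shown is the only TTNNGNAA match of Lcn2, which is counted in the 4 of 5.
Mpo, chr11:87793534-87793580, plus strand: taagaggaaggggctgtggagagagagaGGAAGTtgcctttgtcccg
Elane, chr10:79886199-79886246, plus strand: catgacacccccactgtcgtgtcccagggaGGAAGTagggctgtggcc
Prtn3, chr10:79879544-79879609, plus strand: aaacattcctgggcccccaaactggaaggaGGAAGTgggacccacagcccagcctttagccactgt
Ctsg, chr14:56102744-56102809, minus strand: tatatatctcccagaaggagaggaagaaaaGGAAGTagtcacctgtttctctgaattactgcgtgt
Ms4a3, chr19:11640871-11640940, minus strand: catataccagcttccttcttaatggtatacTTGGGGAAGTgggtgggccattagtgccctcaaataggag
Ltf, chr9:111019045-111019112, plus strand: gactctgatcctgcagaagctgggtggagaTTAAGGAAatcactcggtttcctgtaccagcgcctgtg
Ltf, chr9:111019187-111019254, plus strand: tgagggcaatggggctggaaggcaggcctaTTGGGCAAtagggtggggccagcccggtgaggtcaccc
Ngp, chr9:110419640-110419743, plus strand: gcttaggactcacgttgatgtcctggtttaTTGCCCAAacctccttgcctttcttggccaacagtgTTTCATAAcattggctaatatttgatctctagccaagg
Retnlg, chr16:48872358-48872399, plus strand: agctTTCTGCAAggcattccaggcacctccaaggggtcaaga

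Every one of the 10 genes was lower in all 3 CXCL12-deficient libraries than in any Control library, and 9 of 10 passed the test. Called here means an adjusted p below 0.05 in the quasi-likelihood F-test of edgeR over 13926 genes, of which 3.94% were called lower and 0.639% higher in CXCL12-deficient libraries. Groups that did not overlap, with the CXCL12-deficient libraries lower, occurred in 13.9% of the tested genes. The log2 fold changes of the primary genes ranged from -2.50 to -1.64 with a median of -1.94, and those of the secondary and later genes from -2.38 to -1.80 with a median of -1.98, beside a median of 0.03 over all tested genes. In bulk libraries fewer neutrophils and less RNA of these genes per neutrophil cannot be told apart. Levels are in CPM, read counts scaled to a common library total and by TMM factors, and each member had between 215 and 158574 reads in a library.

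**Figure D1:**
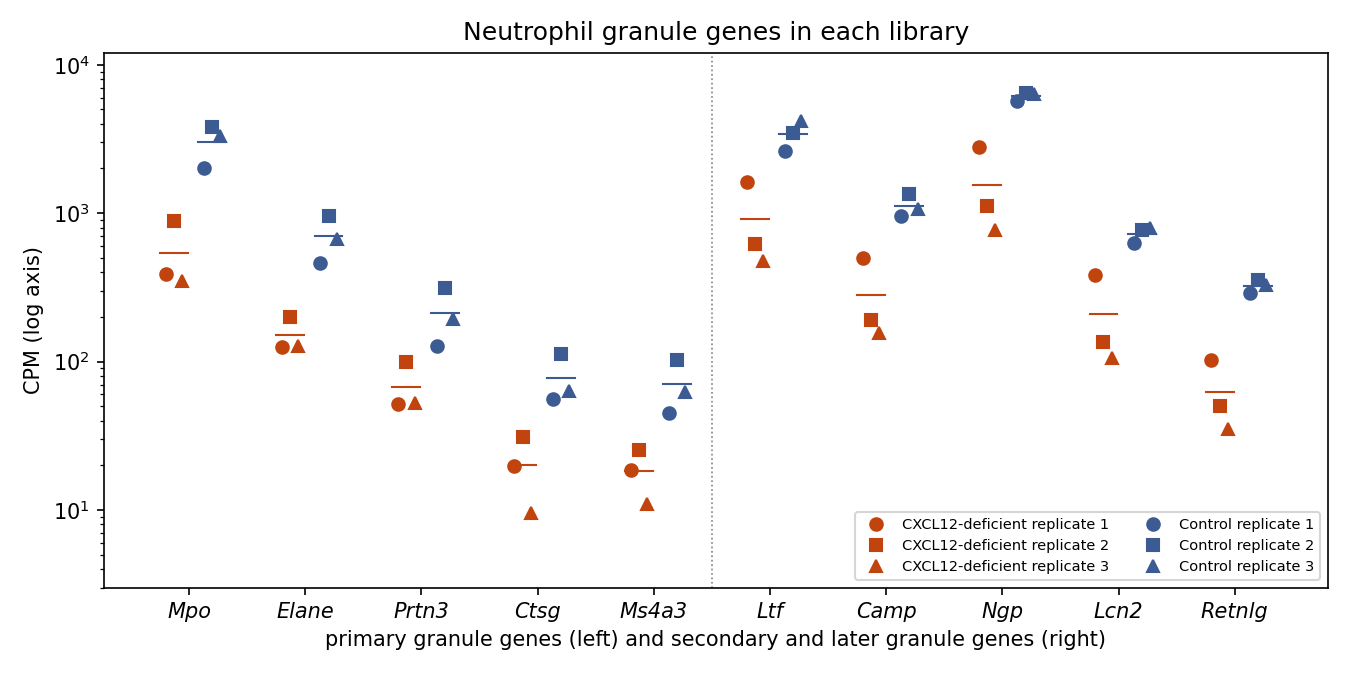
CPM of each gene (log axis) in the 3 CXCL12-deficient libraries (orange) and the 3 Control libraries (blue), with a line at each group mean and a marker shape for each library. Every orange point lies below every blue point of the same gene, and among orange points the square (replicate 2) is highest for the primary genes and the circle (replicate 1) for the secondary and later genes.

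Mpo, which encodes myeloperoxidase, the enzyme that makes hypochlorous acid from hydrogen peroxide, is a gene on chromosome 11 (GRCm38, 87793581 to 87804413, plus strand). It had 391, 880 and 347 CPM in CXCL12-deficient libraries 1 to 3, against 2026, 3791 and 3303 CPM in Control libraries 1 to 3. CXCL12-deficient replicate 2 was the highest of its group and still lay below the lowest Control library. Mpo averaged 539 ± 296 CPM in CXCL12-deficient libraries and 3040 ± 911 CPM in Control libraries (SD, n = 3 each), and the log2 fold change was -2.50 ± 0.39 (SE), with an adjusted p of 0.0121 in edgeR. That is 5.64-fold lower, the largest change among the 10.

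Elane (chromosome 10, 79886247 to 79888215, plus strand) encodes neutrophil elastase. It had 126, 201 and 127 CPM in CXCL12-deficient libraries, against 460, 963 and 673 CPM in Control libraries. Replicate 2 was again the highest of either group. Its log2 fold change was -2.21 ± 0.30 (SE, adjusted p = 0.00796, edgeR), and it was the only member also called at an adjusted p below 0.01. Prtn3, which encodes proteinase 3, lies 3.07 kb upstream of Elane on the same strand (79874476 to 79883174). Prtn3 had 51.9, 99.1 and 52.3 CPM in CXCL12-deficient libraries, against 127, 315 and 193 CPM in Control libraries. Replicate 2 stood highest in both groups here as well, and the gap between the groups was the smallest in fold among the primary genes (log2 fold change -1.64 ± 0.36, SE, adjusted p = 0.0378, edgeR).

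Ctsg encodes cathepsin G, a serine protease of the same family (chromosome 14, 56099881 to 56102574, minus strand). Its level was 19.7, 31.1 and 9.55 CPM in CXCL12-deficient libraries, against 56.0, 113 and 63.7 CPM in Control libraries. Ctsg had a log2 fold change of -1.94 ± 0.42 (SE), with an adjusted p of 0.0347 in edgeR. Ms4a3 encodes a membrane-spanning protein of granulocyte and monocyte progenitors rather than a granule enzyme (chromosome 19, 11629496 to 11640851, minus strand). Its level was 18.6, 25.3 and 11.0 CPM in CXCL12-deficient libraries, against 45.1, 103 and 62.3 CPM in Control libraries, and its log2 fold change was -1.94 ± 0.37 (SE, adjusted p = 0.0214, edgeR). For both genes replicate 2 was the highest library within each group and replicate 3 the lowest among CXCL12-deficient libraries.

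Ltf encodes lactoferrin, the iron-binding protein of secondary granules (chromosome 9, 111019271 to 111042767, plus strand). It had 1628, 623 and 478 CPM in CXCL12-deficient libraries, against 2627, 3460 and 4199 CPM in Control libraries. Here CXCL12-deficient replicate 1, not replicate 2, was the highest of its group. The log2 fold change was -1.91 ± 0.43 (SE, adjusted p = 0.0417, edgeR), and without a filter on low counts the adjusted p was 0.051, past the threshold. Camp encodes the precursor of the cathelicidin antimicrobial peptide (chromosome 9, 109847379 to 109849617, minus strand). Camp had 495, 192 and 155 CPM in CXCL12-deficient libraries, against 956, 1345 and 1071 CPM in Control libraries. Replicate 1 again stood above the other CXCL12-deficient libraries, and the fitted log2 value for Camp was -2.00 ± 0.40 (SE, adjusted p = 0.0279, edgeR).

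Ngp encodes neutrophilic granule protein, a secreted relative of the cathelicidins and cystatins (chromosome 9, 110419747 to 110423012, plus strand). It had 2783, 1114 and 776 CPM in CXCL12-deficient libraries, against 5661, 6410 and 6355 CPM in Control libraries. The Control libraries lay close together and the CXCL12-deficient libraries apart, with means of 1557 ± 1074 CPM in CXCL12-deficient and 6142 ± 418 CPM in Control libraries (SD, n = 3 each). The fitted log2 value for Ngp was -1.98 ± 0.42 (SE, adjusted p = 0.0336, edgeR). Camp, Ngp and Ltf lie in this order on chromosome 9, with 570 kb between Camp and Ngp and 596 kb between Ngp and Ltf.

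Lcn2 encodes lipocalin 2, which binds bacterial siderophores and is also made by adipocytes and macrophages (chromosome 2, 32384633 to 32388252, minus strand). Its level was 385, 135 and 106 CPM in CXCL12-deficient libraries, against 625, 766 and 797 CPM in Control libraries. The groups did not overlap, but Lcn2 missed the threshold (log2 fold change -1.80 ± 0.43, SE, adjusted p = 0.0505, edgeR), whereas DESeq2 (adjusted p = 0.0432, with 6.81% of its genes called lower) and limma-voom (adjusted p = 0.0225, with 3.88%) called it lower. Retnlg encodes resistin-like gamma, a secreted protein abundant in maturing mouse neutrophils (chromosome 16, 48872621 to 48874496, plus strand). Retnlg had 102, 49.8 and 35.0 CPM in CXCL12-deficient libraries, against 289, 356 and 328 CPM in Control libraries. It fell 5.21-fold (log2 fold change -2.38 ± 0.35, SE, adjusted p = 0.0106, edgeR), the largest change among the secondary and later genes.

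Per kilobase of exon, Ngp had the highest level in both groups, with means of 1275 and 5026 CPM per kb in CXCL12-deficient and Control libraries. Camp followed with 370 and 1483 CPM per kb in the same order of groups, and Ltf with 325 and 1224 CPM per kb. At the low end Ctsg had 20.1 and 77.3 CPM per kb, and Ms4a3 had 18.1 and 69.2 CPM per kb. The order of the 10 genes was the same in both groups apart from Mpo and Lcn2. Mpo had 186 CPM per kb in CXCL12-deficient libraries, under the 228 CPM per kb of Lcn2, and 1047 CPM per kb in Control libraries, above the 797 CPM per kb of Lcn2. In Control libraries each step of the order Camp, Ltf, Mpo, Lcn2, Elane, Retnlg, and that from Ctsg to Ms4a3, was smaller than the SD of the more variable gene of the pair. Those from Ngp to Camp, from Retnlg to Prtn3 and from Prtn3 to Ctsg were larger.

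The stage groups moved apart between the CXCL12-deficient libraries. All 5 primary genes had their highest CXCL12-deficient value in replicate 2 and all 5 secondary and later genes in replicate 1. Over all tested genes the highest CXCL12-deficient value fell in replicate 1 for 35.3%, in replicate 2 for 32.2% and in replicate 3 for 32.5%. Secondary and later genes were 2.04 to 2.85 times as high in replicate 1 as in replicate 2, while primary genes in replicate 1 were at 0.444 to 0.736 of their level in replicate 2. Against replicate 3, the secondary and later genes in replicate 1 were 2.91 to 3.64 times as high and the primary genes 0.985 to 2.07 times. Genes of 1 group share libraries and cells, so their common order is 1 observation per library and not 5.

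**Figure D2:**
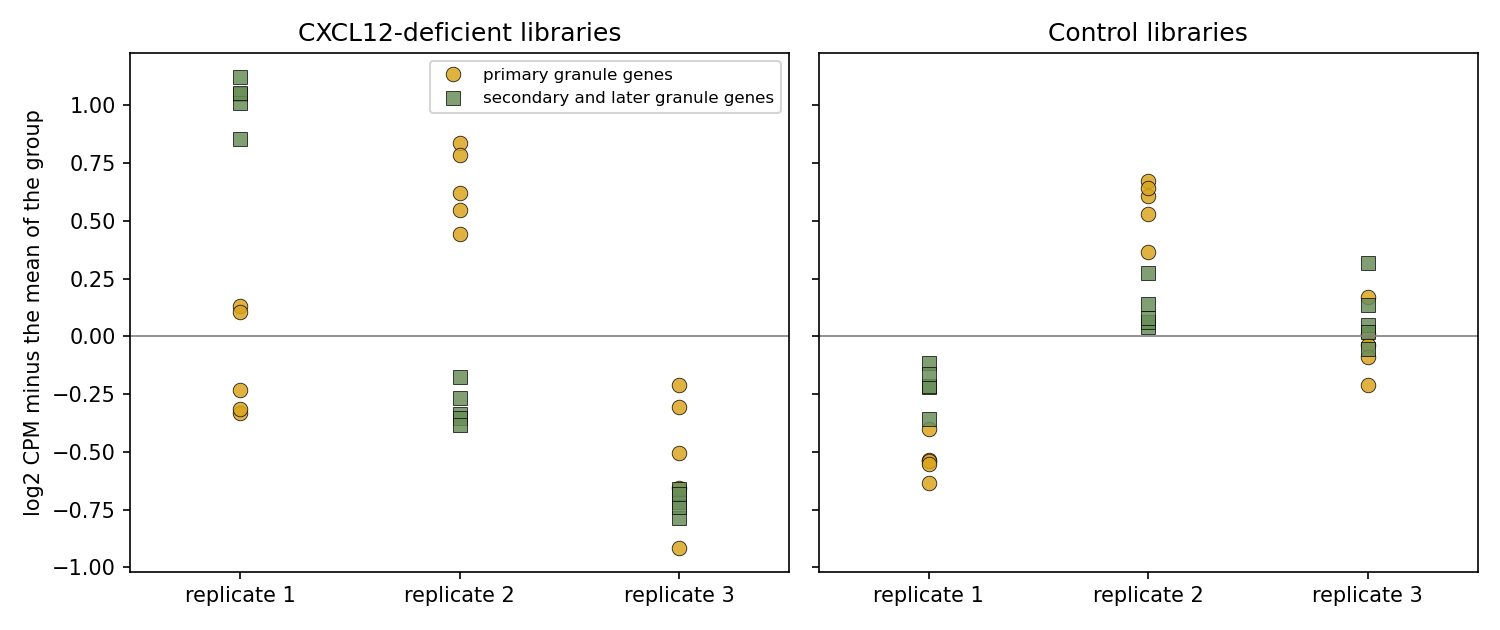
Log2 CPM of each gene minus the mean of its own group, for the CXCL12-deficient libraries (left) and the Control libraries (right), with circles for primary and squares for secondary and later granule genes. In CXCL12-deficient replicate 1 the squares lie between 0.86 and 1.13 and the circles between -0.33 and 0.13, and in replicate 2 the circles lie above the squares.

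In Control libraries the stages kept closer together. All 5 primary genes were again highest in replicate 2, at 1.87 to 2.47 times their level in Control replicate 1. Over all tested genes the highest Control value fell in replicate 1 for 37.5%, in replicate 2 for 28.2% and in replicate 3 for 34.2%. The secondary and later genes in Control replicate 2 were 1.13 to 1.41 times as high as in Control replicate 1. The coefficient of variation of the secondary and later genes ran from 56.4% to 73.6% in CXCL12-deficient libraries and from 6.80% to 22.9% in Control libraries. That of the primary genes ran from 28.4% to 54.9% in CXCL12-deficient and from 30.0% to 45.0% in Control libraries. The difference in spread between the groups was not tested.

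Summed, the primary genes gave 606, 1236 and 547 CPM in CXCL12-deficient libraries, against 2714, 5284 and 4294 CPM in Control libraries, and the mean was 19.4% of that of Control. The secondary and later genes summed to 5392, 2114 and 1550 CPM in CXCL12-deficient libraries, against 10159, 12337 and 12749 CPM in Control libraries, a mean of 25.7% of that of Control. All 10 together took 0.573%, 0.333% and 0.207% of all counts in CXCL12-deficient libraries, against 1.29%, 1.79% and 1.79% in Control libraries. The granule transcripts were thus a small part of every library, and the groups did not overlap.

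Primary genes made up 10.1% of the 10-gene sum in CXCL12-deficient replicate 1 (95% Wilson interval 9.95 to 10.3, counting error only), 36.9% in replicate 2 (36.6 to 37.2) and 26.1% in replicate 3 (25.7 to 26.5). In Control libraries 1 to 3 they made up 21.1%, 30.0% and 25.2%. The share in CXCL12-deficient libraries lay both below and above the whole Control range, with means of 24.4 ± 13.5% and 25.4 ± 4.46% in CXCL12-deficient and Control libraries (SD, n = 3 each), so the group means differed by less than the spread between libraries. The difference of -1.06 percentage points became 6.07 with CXCL12-deficient replicate 1 left out, -7.33 with CXCL12-deficient replicate 2 left out and 1.22 with Control replicate 2 left out. For 1 gene of each stage, the log2 ratio of Mpo to Ltf counts was -2.06, 0.50 and -0.46 in CXCL12-deficient libraries and -0.37, 0.13 and -0.35 in Control libraries. Its mean differed by -0.48 (exact two-sided permutation test, p = 0.7, where 3 against 3 gives 0.1 at the smallest), and without CXCL12-deficient replicate 1 by 0.21.

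**Figure D3:**
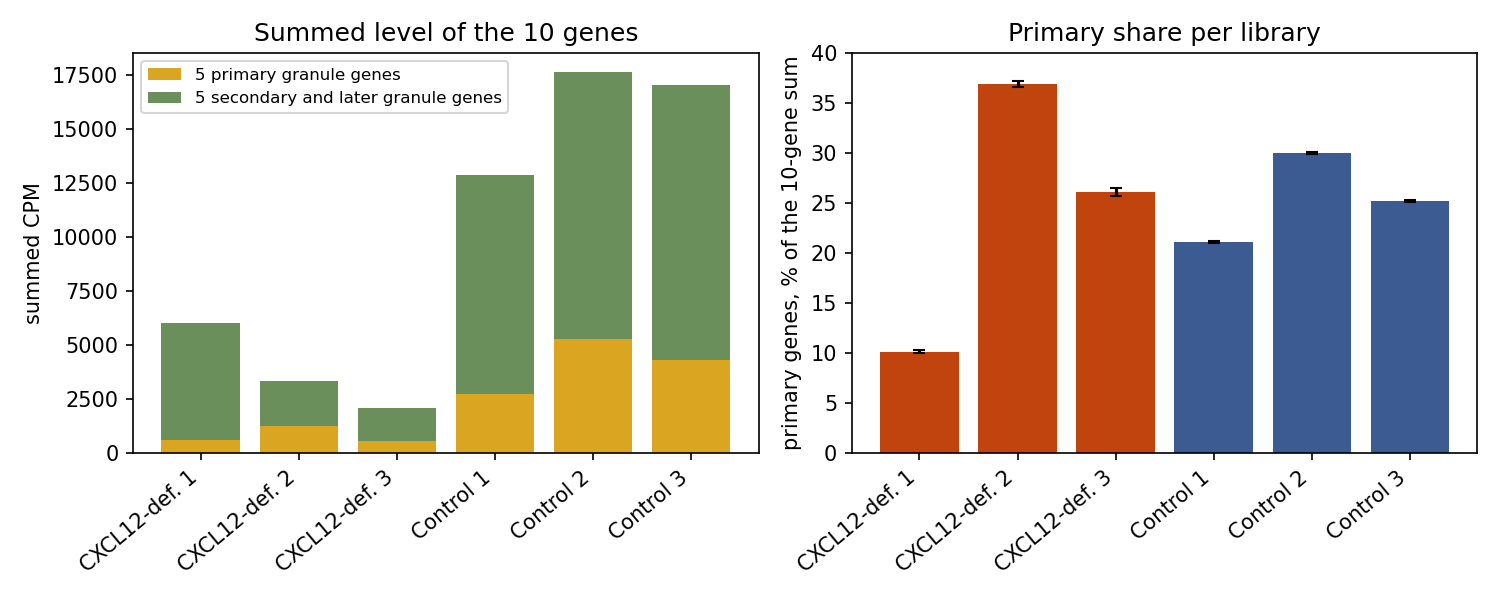
Summed CPM of the primary and of the secondary and later granule genes in each library (left), and the primary genes as a percent of the 10-gene sum with 95% Wilson intervals (right), CXCL12-deficient libraries before Control libraries. The primary share runs from 10.1% to 36.9% in CXCL12-deficient libraries and from 21.1% to 30.0% in Control libraries.

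The calls in each stage depended on which CXCL12-deficient library was in the fit. Without CXCL12-deficient replicate 1, 5 of 5 secondary and later genes were called lower (log2 fold changes -2.93 to -2.59, adjusted p 0.00203 to 0.0035, edgeR), beside 3.2% of all genes. In that fit 2 of 5 primary genes, Mpo and Elane, were called, with adjusted p from 0.0225 to 0.117 over the 5. Without CXCL12-deficient replicate 2 the primary genes were called in 5 of 5 cases (log2 fold changes -3.04 to -2.02, adjusted p 0.0118 to 0.0347, edgeR), beside 2.89% of all genes. Only Retnlg of the secondary and later genes was called then, with adjusted p from 0.0368 to 0.135 over the 5. Each of the 10 genes was lower in the CXCL12-deficient group in every one of these fits.

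**Figure D4:**
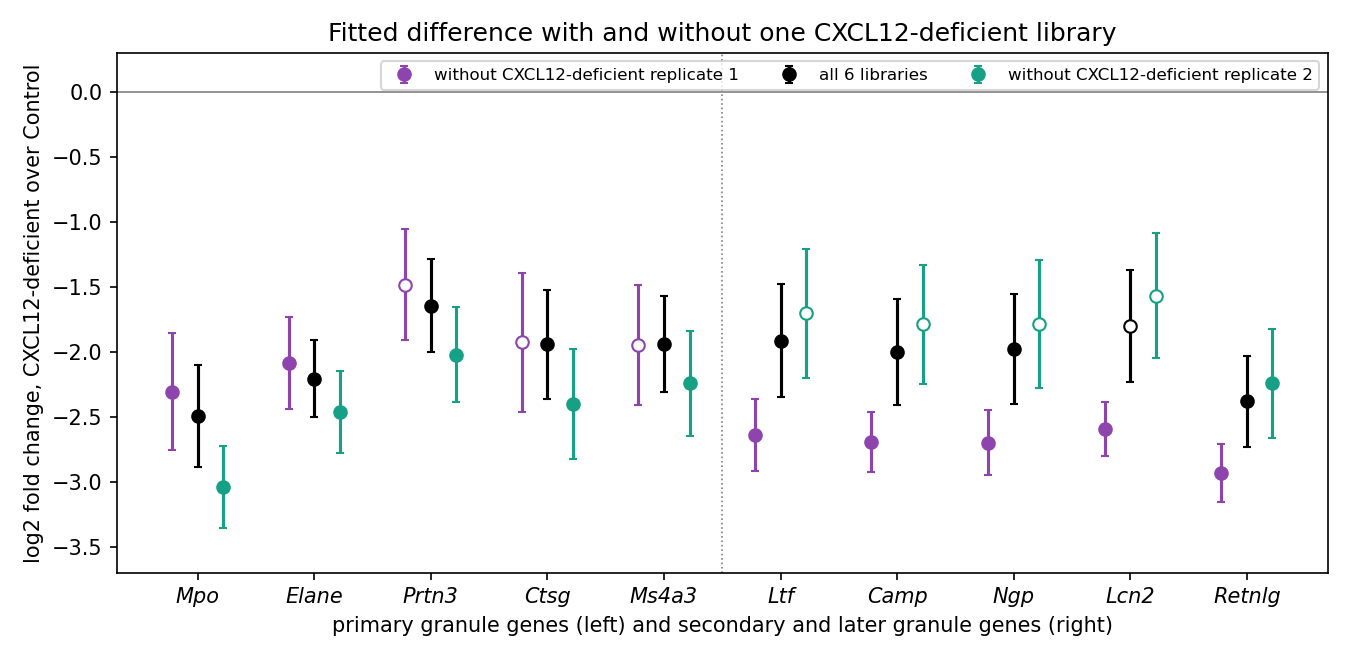
Log2 fold change (CXCL12-deficient over Control) with its SE for each gene, fitted with all 6 libraries (black), without CXCL12-deficient replicate 1 (purple) and without CXCL12-deficient replicate 2 (green), where filled points have an adjusted p below 0.05. Purple points lie lowest for the 5 secondary and later genes and green points lie lowest for the 5 primary genes.

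Leaving out Control replicate 2 or 3 ended most calls. Without Control replicate 3 only Elane stayed called of the 10 (adjusted p = 0.0404, edgeR), while only 0.521% of all genes were called lower. Without Control replicate 2 the genes called were Mpo, Elane and Retnlg, beside 1.08% of all genes. Without CXCL12-deficient replicate 3 the calls of Prtn3 and Ltf were lost (2.87% of all genes called lower), and without Control replicate 1 those of Ltf and Ngp (3.74%). Elane was called in each of the 6 refits and Mpo and Retnlg in 5, whereas Ltf and Lcn2 were each called in 1, that without CXCL12-deficient replicate 1.

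Most other genes of the same granules also fell. Of 8 other primary granule genes tested, 6 were called lower (median log2 fold change -1.84). The 6 include Serpinb1a, a protease inhibitor gene that is counted again with the inhibitors below. Lyz2, encoding lysozyme, fell most (-2.43 ± 0.32, SE, adjusted p = 0.0069, edgeR), and it had 639, 351 and 306 CPM in CXCL12-deficient libraries, against 1732, 2872 and 2378 CPM in Control libraries. Cst7, encoding the inhibitor cystatin F (-2.40), Nkg7, encoding a granule membrane protein (-2.01), and Srgn, encoding serglycin, the proteoglycan on which granule proteases are packed (-1.86), also fell. Lyz2 and Srgn were highest among CXCL12-deficient libraries in replicate 1 and Cst7 and Nkg7 in replicate 2, and 3, 3 and 2 of the 8 were highest in replicates 1, 2 and 3. In Control libraries 7 of the 8 were highest in replicate 2, beside 28.2% of all tested genes. That library was also the highest Control library for 7 of 7 megakaryocyte genes, but for 2 of 10 pan-leukocyte genes.

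Of 10 other specific granule genes, 8 were called lower (median -1.87). Among CXCL12-deficient libraries 10 of 10 were highest in replicate 1, beside the 35.3% of all tested genes given above. This peak was not particular to granule genes. Replicate 1 was also highest for 8 of 10 pan-leukocyte and 9 of 12 monocyte and macrophage genes. The megakaryocyte genes, with 3 of 7 highest in replicate 1, lay near the 35.3% of all tested genes. Mmp8, encoding neutrophil collagenase, fell 5.76-fold, Fcnb, encoding ficolin B, 4.90-fold, Chil3, encoding a chitinase-like lectin, 4.60-fold and Itgb2l, encoding an integrin beta-2-like subunit, 4.43-fold. Chil3 had 495, 157 and 132 CPM in CXCL12-deficient libraries, against 1204, 1136 and 1272 CPM in Control libraries, so that, like Ltf, it was highest in replicate 1 among CXCL12-deficient libraries. Olfm4, encoding olfactomedin 4, was not called (-1.83, adjusted p = 0.126, edgeR). Hp, encoding haptoglobin, which adipocytes also make, went the other way and did not pass the test (log2 fold change 1.0, adjusted p = 0.057, edgeR), with 4866, 3577 and 2473 CPM in CXCL12-deficient libraries, against 1920, 1843 and 1691 CPM in Control libraries. Hp was called higher by DESeq2 (adjusted p = 0.0011) and limma-voom (adjusted p = 0.0497), and in edgeR without a filter, with the filter of 5 CPM and without CXCL12-deficient replicate 3, and its adjusted p ran from 0.0011 to 0.231 over all settings.

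Among 21 tested tertiary granule and late maturation genes, 10 were called lower by edgeR, 17 by DESeq2 and 12 by limma-voom (median -1.99), and 14 of the 21 were highest among CXCL12-deficient libraries in replicate 1. Itgam, encoding the CD11b integrin chain, fell 7.71-fold and Csf3r, encoding the G-CSF receptor, 5.37-fold. Cd101 was called as well, at or near 0 reads in the CXCL12-deficient libraries. The enzymes of ordinary lysosomes, to which azurophil granules are related, showed 0 of 10 calls by edgeR, with 2 lower and 1 higher at an unadjusted p below 0.05, 1 lower by DESeq2 and 0 by limma-voom. Their median log2 fold change was 0.05, and Ctsb (0.43) and Ctsd (0.15), encoding cathepsins B and D, were the most abundant.

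Of 9 transcription factors of the granulocyte lineage, 4 were called lower. Cebpe, encoding the factor required for secondary granules, had 22.7, 21.3 and 9.68 CPM in CXCL12-deficient libraries, against 42.5, 82.5 and 71.1 CPM in Control libraries (log2 fold change -1.87 ± 0.35, SE, adjusted p = 0.0211, edgeR). Myb fell 4.37-fold, Spi1, encoding PU.1, 3.58-fold and Irf8, encoding a factor of the monocyte lineage, 3.07-fold. Gfi1, encoding a repressor needed for neutrophil development, had 0, 1.48 and 1.07 CPM in CXCL12-deficient libraries, against 7.85, 15.1 and 11.5 CPM in Control libraries, and its adjusted p of 0.0524 (edgeR) missed the threshold. Cebpa, Cebpb, Cebpd and Runx1, which many cell types express, were not called, with log2 fold changes from 0.12 to 0.52.

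Of 10 genes of granule sorting and release, 3 were called lower, namely Rab27a (-2.40), Unc13d (-1.98) and Stxbp2 (-1.71), which encode parts of the docking and fusion machinery of secretory granules. The list median was -0.44, and 6 of the 10 had a negative log2 fold change. Of 6 protease inhibitors, Slpi, encoding an inhibitor of elastase and cathepsin G, and Serpinb1a, encoding an inhibitor of elastase, proteinase 3 and cathepsin G, were called lower (-1.97 and -1.81). Among 10 tested targets and receptors of granule proteins, Csf3r, Cxcr4 (-1.72) and Cxcl12 (-1.54) were called lower, and DESeq2 called 5. Csf3r was also counted among the tertiary and late genes. Cxcl12 is the gene targeted by the design and served above as the check of the labels. Its call is therefore not a result about granule proteins. Elastase and cathepsin G are known to cleave CXCL12. Without Control replicate 3 the counts of called genes were 1 of 8 other primary, 1 of 10 other specific, 1 of 21 tertiary and late, 1 of 9 transcription factors, 1 of 10 sorting, 0 of 6 inhibitor (2 at an unadjusted p below 0.05 in edgeR) and 1 of 10 target genes. Without Control replicate 2 they were 2, 1, 4, 2, 1, 0 and 1 in the same order, and without CXCL12-deficient replicate 2 the specific granule count was 3 of 10 and the inhibitor count 1 of 6.

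**Figure D5:**
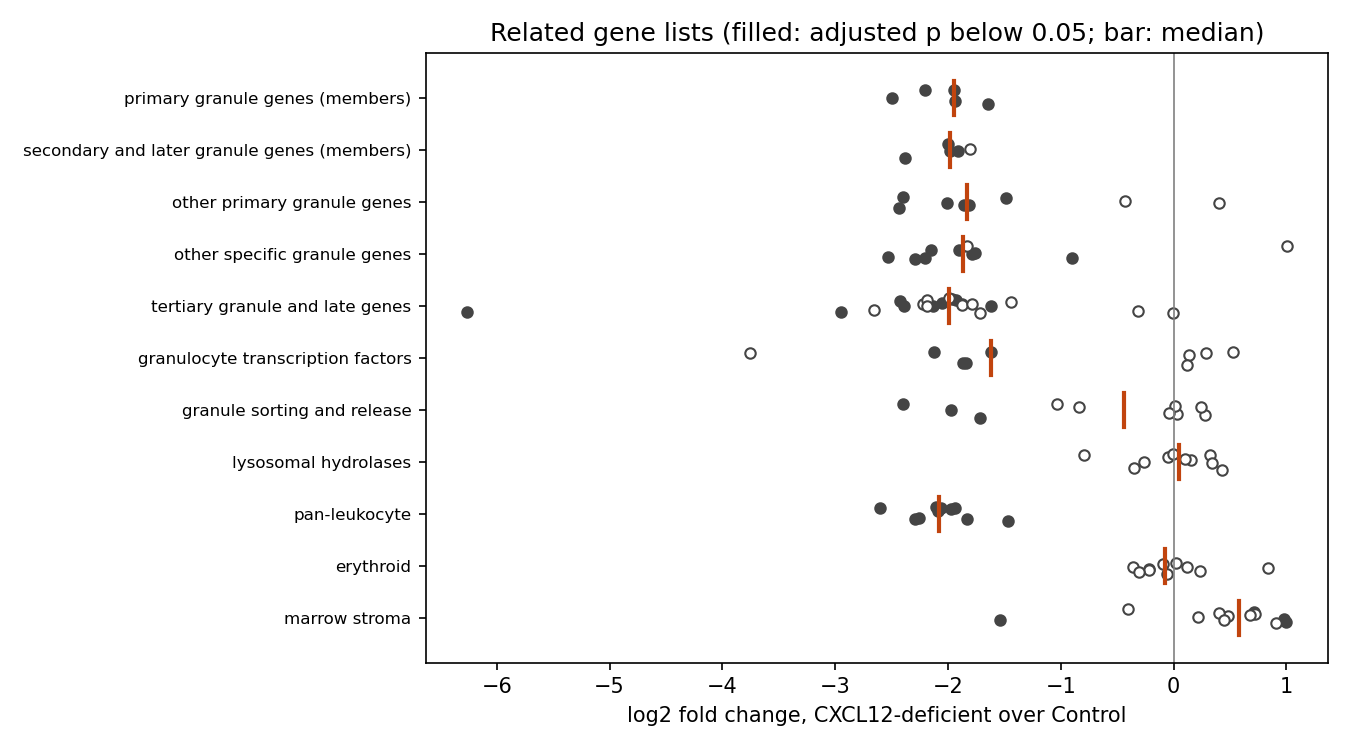
Log2 fold change (CXCL12-deficient over Control) of each tested gene in 11 gene lists, with filled points for an adjusted p below 0.05 and a bar at the median of each list. The member, other primary, other specific and tertiary lists lie near the pan-leukocyte list, with medians from -1.99 to -1.84 and -2.08. Granule sorting and release has a median of -0.44, and the lysosomal, erythroid and stromal lists have medians of 0.05, -0.07 and 0.58.

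All 10 pan-leukocyte genes were called lower (median -2.08), Ptprc, encoding CD45, 6.08-fold, and their summed level was 452 to 927 CPM in CXCL12-deficient libraries, against 2177 to 3425 CPM in Control libraries. That sum was highest in replicate 1 among CXCL12-deficient libraries and in replicate 3 among Control libraries. Of 12 monocyte and macrophage genes 4 were called lower (F13a1, Ccr2, Ly6c2 and Csf1r) and 8 were not called, with a list median of -0.69, and their sum was 164 to 255 CPM against 388 to 536 CPM in the same order of groups. Among those not called were C1qb and C1qc, subunits of complement C1q made by macrophages, with positive log2 fold changes (both 0.78, adjusted p = 0.224 and 0.149, edgeR). Of 7 megakaryocyte genes 5 were called lower (7 by DESeq2 and 3 by limma-voom), with sums of 8.97 to 15.5 CPM in CXCL12-deficient and 82.2 to 270.3 CPM in Control libraries. Erythroid genes were called in 0 of 10 cases by edgeR, DESeq2 and limma-voom (0 by edgeR at an unadjusted p below 0.05), with a median of -0.07 and sums of 2331 to 6355 CPM in CXCL12-deficient and 2702 to 4955 CPM in Control libraries.

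The lists of further blood cells were called lower for 3 of 12 eosinophil, basophil and mast cell genes, 3 of 6 blood progenitor genes and 3 of 9 B cell genes by edgeR, and DESeq2 called 8 of the 9 B cell genes. Of 12 stromal genes, Cxcl12 was called lower and Cxcl14, Adipoq and Ebf3 higher (5 higher by DESeq2), with a summed level of 12496 to 16502 CPM in CXCL12-deficient and 10657 to 19668 CPM in Control libraries. The part of cell composition in the granule results was not tested. Without Control replicate 3 the pan-leukocyte count was 4 of 10, the megakaryocyte count 2 of 7 and the monocyte and macrophage count 2 of 12. Leaving out Control replicate 2 gave 2 megakaryocyte genes, and leaving out CXCL12-deficient replicate 1 gave 3. Of the B cell genes 6 were called when Control replicate 1 was left out, 1 when CXCL12-deficient replicate 3 was, and 0 when any other single library was, although 8 of 9 had an unadjusted p below 0.05 in edgeR. Of the eosinophil, basophil and mast cell genes 1 was called when CXCL12-deficient replicate 1 was left out, and 0 when either CXCL12-deficient or Control replicate 3 was, where 5 and 4 had an unadjusted p below 0.05 in edgeR. The 3 higher stromal calls became 5 with CXCL12-deficient replicate 2 left out, 1 with either CXCL12-deficient replicate 3 or Control replicate 1 left out, and 0 with CXCL12-deficient replicate 1, Control replicate 2 or Control replicate 3 left out (7, 6 and 5 at an unadjusted p below 0.05 in edgeR).

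Most genes next to the members were not called. Of 13 tested neighbours that were not members, 11 were not called, 1 was called lower and 1 higher. Over all tested genes 3.94% were called lower and 0.639% higher. Tspoap1, listed under its older symbol Bzrap1 and next to Mpo at a distance of 7.86 kb, was lower (log2 fold change -2.38, adjusted p = 0.0336, edgeR). Cfd, encoding the complement protease factor D, which adipocytes make, begins 2.64 kb from Elane and was higher (2.60, adjusted p = 0.0472, edgeR), with 10.6, 6.02 and 3.29 CPM in CXCL12-deficient libraries, against 1.82, 0.813 and 0.614 CPM in Control libraries. Elane, in the next position on the chromosome, was 4.62-fold lower. The call of Tspoap1 was lost when CXCL12-deficient replicate 1 or 3 or Control replicate 2 or 3 was left out (largest adjusted p = 0.162, edgeR). That of Cfd was lost when CXCL12-deficient replicate 1 or 2 or Control replicate 2 or 3 was left out (largest adjusted p = 0.195, edgeR), with log2 fold changes of 2.09 to 3.18 over the 6 refits.

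Among 10818 genes that averaged 5 CPM or more, the profiles over 6 libraries most like that of Mpo, leaving out the 10 granule genes themselves, were those of Cst7, Mogat2, Inpp5d, Pik3cg and Sema4a. Likeness is the root mean square difference of log2 CPM, each gene centred on its mean, and for these genes it ran from 0.226 to 0.292. The other primary genes lay at 0.301 to 0.520 from Mpo and the secondary and later genes at 0.670 to 0.847. With the 10 granule genes again left out, those most like Ltf were Vav3, Lilrb3, Samsn1, Chi3l1 and Ceacam1, at 0.136 to 0.163. The other secondary and later genes lay at 0.108 to 0.280 from Ltf, with Lcn2 closer to Ltf than any of these, and the primary genes at 0.617 to 0.806. The stages thus separated in their profiles over these libraries, given here as a description, since all profiles come from the same 6 libraries.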

How the data were processed

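Raw counts of reads per gene were deposited by the authors, in whole numbers and not normalized. The submitters' processing notes name TopHat2 2.0.13, Bowtie2 2.2.1, HTSeq, Cuffdiff and DESeq2 and the build mm10, without giving roles. Which annotation and strand setting were used, and how reads shared by similar genes were handled, is not given in the sources used here. The number of reads on overlapping or similar genes is therefore uncertain. A deposited signal table equalled the counts divided by 1 factor per library and was used only for that check, and the deposited regularized log2 values were not used. The table held 17131 entries, among them no Rpl, Rps or mitochondrially encoded genes, so RNA quality was not analysed here. The 4 Cxcl12 exon entries were summed. Libraries held 20133299 to 28009257 counts, and 1 read equalled 0.0357 to 0.0497 CPM.

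CXCL12-deficient libraries were compared with Control with edgeR 4.0.16 (R 4.3.3), using its quasi-likelihood F-test with robust shrinkage on TMM-scaled counts (filterByExpr, minimum count 10, minimum total 15), with Benjamini-Hochberg adjustment over 13926 genes. SE came from the F statistic. The fit was tested on simulated data. Alternatives were DESeq2 and upper quartile factors, no filter, at least 5 CPM in 3 libraries, no robust shrinkage, DESeq2, limma-voom, an adjusted p below 0.01 and each library left out. Gene coordinates follow GENCODE M21 (GRCm38). Of 173 listed genes 5 had no row and 7 were found under older symbols. The members and gene lists were chosen with earlier results of these data known. From each list the text names up to 4 called genes with the largest change, or the 2 most abundant where none was called, and further genes it names from the lists were chosen after their values were seen. Neighbouring genes and the 5 genes most like Mpo and like Ltf followed set rules. Some genes these rules name are not reported here.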

Additional observations from a re-analysis of the deposited data

How the results depend on the processing

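Each of the 10 genes was lower in CXCL12-deficient libraries in every fit run. Over 80 gene and setting pairs that kept all libraries, 9 calls were lost and 2 were gained, both of Lcn2, with DESeq2 and with limma-voom. Over 60 pairs with 1 library left out, 24 calls were lost and 1 was gained. DESeq2 called 1030 genes lower and 303 higher in all, against 548 and 89 by edgeR. At an adjusted p below 0.01 edgeR called 79 lower and 1 higher over all genes. Of the 10 genes it called 1, of the primary genes 1 and of the secondary and later genes 0. All 5 secondary and later genes were lower at an unadjusted p below 0.05 in edgeR, beside 1577 of the 13926 tested genes. DESeq2 called 3 of the 5 at 0.01, and its calls over all genes at 0.01 are not given here. With 1 library left out, calls ranged from 74 to 530 lower and 0 to 76 higher over all genes, 1 to 7 of the 10, 1 to 5 primary and 0 to 5 secondary and later. The counts of 0 came without Control replicate 3 in edgeR. In that fit 1175 of 14206 genes were lower and 515 higher at an unadjusted p below 0.05. All 5 secondary and later genes were among the lower ones. The median log2 fold change of the secondary and later genes ranged from -2.69 to -1.66 and that of the primary genes from -2.40 to -1.57. The difference in stage balance was -1.06 percentage points of primary share, and 0.14 on the log2 scale with each gene weighted equally, and with 1 library left out it ranged from -7.33 to 6.07 percentage points, changing sign. The Mpo to Ltf difference ranged from -1.07 to 0.21 and turned without CXCL12-deficient replicate 1, and with Elane and Camp in their place it was 0.0033. The cause was not tested. No paired analysis was possible because the labels give no replicate numbers that groups share. With 3 libraries a group and counts of 215 or more, the spread between libraries and not counting error limits these results.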
